A study of Mus musculus with 10 samples.

Results

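The genes described here are 3 receptors of the EGF receptor family (Egfr, Erbb2 and Erbb3) and 6 ligands of the EGF receptor (Areg, Ereg, Hbegf, Tgfa, Btc and Epgn), 9 of the 25814 genes listed for every library. For 8 of them the gene name in the tables matched. Areg was found by its gene identifier, ENSMUSG00000029378, because its row carries the name Mcub_2. Egf itself, the founding ligand, and the receptor Erbb4 belonged to a list of other pathway genes and are given near the end.

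RNA was sequenced from 5 groups of mouse cells with 2 libraries each, to ask how keratinocytes and CD8+ T cells change upon contact. Keratinocytes were primary cultures from the tail skin of adult wild-type C57/B6 mice, kept in keratinocyte SFM medium at low calcium, and were collected either alone or once activated CD8+ T cells, kept with them in co-culture, had been washed off. CD8+ T cells were taken from spleen with magnetic beads and activated with antibodies to CD3 and CD28 for 1 d, a step that all 3 T-cell groups share. They were collected at that point (activated T cells), after another 1 d in keratinocyte medium without keratinocytes, or after another 1 d in co-culture. By the study's methods the medium of both of these later groups was mostly SFM with a smaller part of X-VIVO, the calcium-containing medium in which the T cells had been activated. Medium, the further day of culture and the end of the stimulation therefore cannot be told apart between activated and later T cells, nor can contact with T cells and the addition of X-VIVO between the keratinocyte groups. The labels name no transgene or gene deletion in any group. The sample labels give 1 d for the co-culture whereas the deposited design text gives 1 h, and the labels were followed. The design text speaks of 2 parallel experiments without saying whether the replicates came from separate animals, so that p-values measure the spread between these libraries only. Keratinocyte replicates carry the numbers 1 and 2 in the labels, as do activated T cells. The other T-cell libraries carry no number and are called a and b.

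The EGF receptor is a tyrosine kinase on the cell surface that pairs with itself or with its relatives when a ligand binds and then signals through RAS and the MAP kinases. Its ligands are made as membrane-bound precursors that proteases such as ADAM17 release, so that a cell can stimulate itself and its neighbours. In skin this system is known for driving growth, migration and wound closure of keratinocytes. ERBB2 binds no known ligand and acts as a partner, and ERBB3 has little kinase activity of its own and binds neuregulins.

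Libraries held 12864931 to 18019609 exon reads, of which 78.2% to 87.2% mapped to a single place. Levels are given as RPKM, the authors' reads per kilobase of exon, scaled to the mapped reads of the library, so that they can be compared between genes. At these depths 3 reads, taken as the limit that a count of 0 allows, equal 0.158 to 0.212 RPKM for a gene of 1 kb of exon. These limits cover counting error only. The 16 keratinocyte markers summed to 16052 to 19109 RPKM in the 4 keratinocyte libraries, and 15 of them had reads in each of the 4, Krt10 being at 0 in replicate 2 of the co-culture. The 10 T-cell markers, Cd8a and Cd8b1 among them, summed to 1397 to 2904 RPKM in the 6 T-cell libraries. Keratinocyte libraries were not free of T-cell RNA. Their T-cell markers summed to 112 and 438 RPKM in replicates 1 and 2 alone and to 143 and 780 RPKM in replicates 1 and 2 of the co-culture, with Cd8a at most 1.16 RPKM and Cd8b1 at most 2.00 RPKM. Cd4, a marker of helper T cells, measured 11.4 and 43.5 RPKM without T cells and 15.0 and 84.5 RPKM with them. T-cell libraries were not CD8+ T cells alone either, with Cd4 at 16.8 to 102 RPKM and 5 B-cell markers that summed to 16.6 to 92.5 RPKM, against 0.531 to 3.85 RPKM in keratinocyte libraries. A gene's level in such bulk RNA cannot separate fewer cells of a type from less RNA per cell.

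All 9 genes were highest in keratinocytes. Each was higher in all 4 keratinocyte libraries than in all 6 T-cell libraries, a pattern that 21.0% of the 13394 genes tested shared. In keratinocytes alone, 3 ligands led. Hbegf (heparin-binding EGF-like growth factor) stood at 34.3 ± 15.8 RPKM (SD, n = 2), Tgfa (transforming growth factor alpha) at 33.7 ± 7.61 RPKM and Epgn (epigen) at 33.1 ± 14.4 RPKM. The order of these 3 was not the same in both libraries, so that they could not be ranked. Erbb3 followed at 20.6 ± 7.92 RPKM, Areg (amphiregulin) at 17.1 ± 1.12 RPKM, Egfr at 15.4 ± 2.97 RPKM and Erbb2 at 14.9 ± 1.46 RPKM, again with neighbours whose libraries overlapped. Ereg (epiregulin) lay at 11.4 ± 2.96 RPKM, below Erbb2 in both libraries, and Btc (betacellulin) was lowest at 2.65 ± 1.27 RPKM, without overlap with Ereg.

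Ligand RNA exceeded receptor RNA in every keratinocyte library. The 6 ligands summed to 161 and 103 RPKM in replicates 1 and 2 of keratinocytes alone and to 112 and 38.8 RPKM in co-culture, against 59.6, 42.1, 36.3 and 9.03 RPKM for the 3 receptors in the same order. Hbegf, Tgfa and Epgn each made up 20.8% to 38.3% of the ligand sum in these 4 libraries, Areg 7.90% to 17.4%, Ereg 3.63% to 8.98% and Btc 1.70% to 2.48%. Epgn had its largest share, 38.3%, in replicate 2 of the co-culture, the library with the lowest ligand sum.

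**Figure D1:**
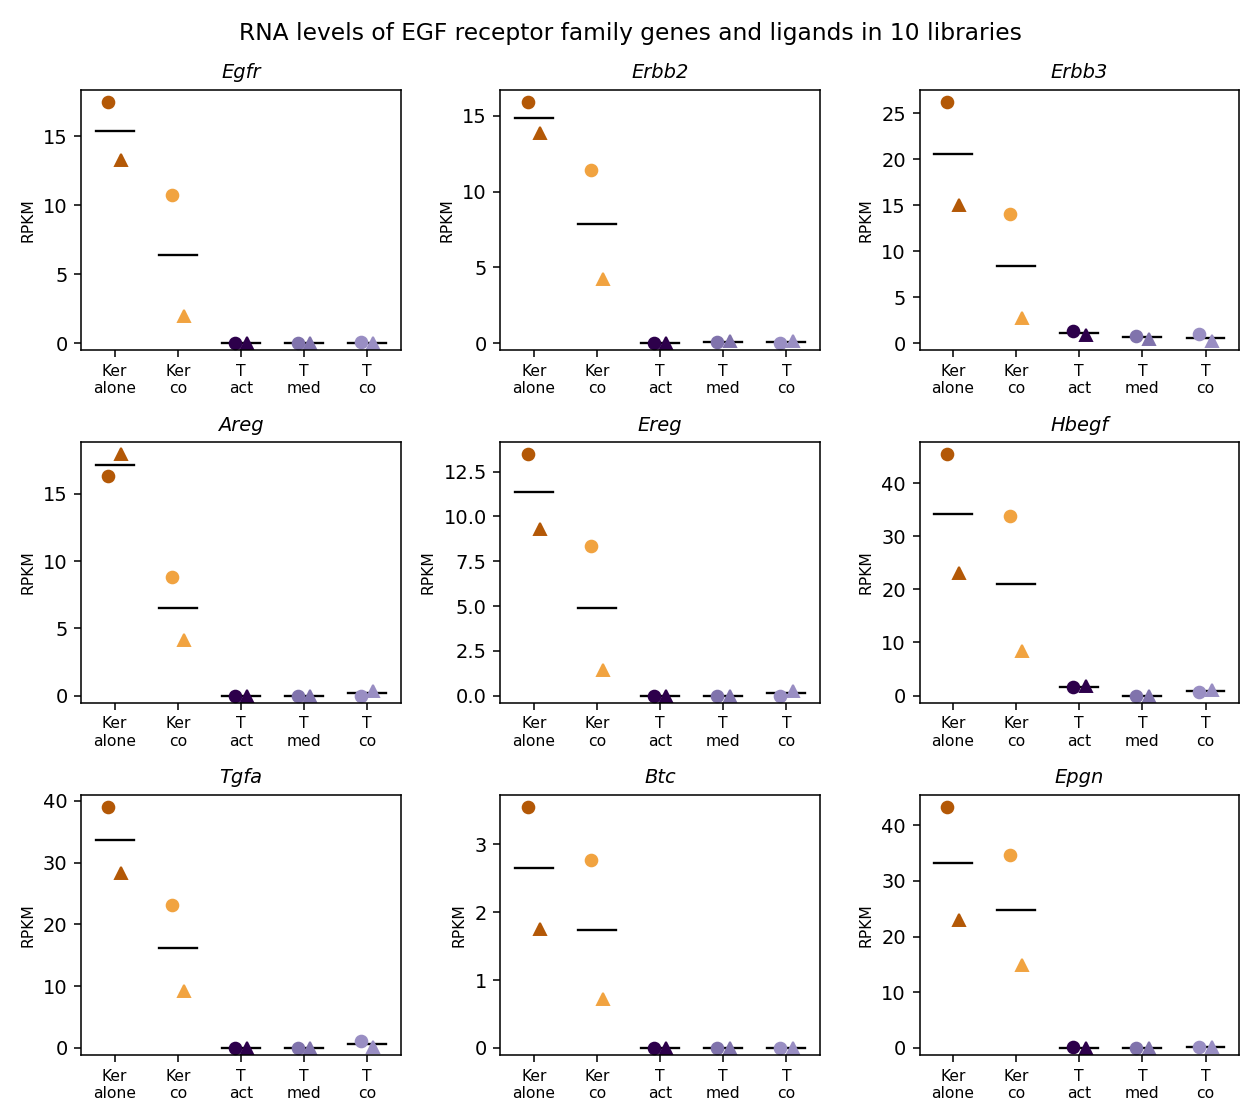
RPKM (linear axes, a scale of its own for each gene) of the 3 receptors and 6 ligands in keratinocytes alone (Ker alone), co-cultured keratinocytes (Ker co), activated T cells (T act), T cells in keratinocyte medium (T med) and co-cultured T cells (T co); circles are replicate 1 or library a, triangles replicate 2 or library b, and bars the mean of 2 libraries. All 4 keratinocyte libraries lie above all 6 T-cell libraries for each of the 9 genes, and the triangle of the co-cultured keratinocytes is the lowest keratinocyte point in every panel.

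The receptor genes lie on chromosome 11 (Egfr, chr11:16752203-16918158, and Erbb2, chr11:98412470-98437716, both on the plus strand, GRCm38) and chromosome 10 (Erbb3, chr10:128567523-128589652, minus strand). Tgfa is at chr6:86195223-86275719 on the plus strand. Of the other ligands, 4 are neighbours on chromosome 5, in the order Epgn (chr5:91027464-91035215), Ereg (chr5:91074622-91093646), Areg (chr5:91139599-91148432) and, on the opposite strand, Btc (chr5:91357261-91402994), within 376 kb. The genes on either side of this cluster were lower than Epgn, Ereg and Areg in keratinocytes but not all lower than Btc. In keratinocytes alone Mthfd2l, before Epgn, stood at 1.89 RPKM and Parm1, after Btc, at 0.566 RPKM, while the 4 ligands between them spanned 2.65 to 33.1 RPKM. In co-culture Mthfd2l, at 1.93 RPKM, was slightly above Btc, at 1.74 RPKM. Uniquely mapped reads made up at least 98.9% of the exon reads of each of the 9 genes, a share that was lowest for Tgfa.

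Promoter sequence from 250 bases before to 50 bases after the gene start that RefSeq gives (GRCm38.p6) was at hand for 6 of the 9 genes. For Epgn and Tgfa that start is not the one in the deposited tables. Of these 6 windows, 3 are shown. They belong to the cluster gene with the largest fold between the means of both keratinocyte groups (Areg) and to the member that differed least (Epgn). Tgfa was added as a leading ligand whose 2 groups of keratinocytes did not overlap. Ereg, Erbb3 and Hbegf were not among the 6. Capitals mark the CRE (TGACGTCA, the cyclic AMP response element) and the GC box (GGGCGG, bound by SP1, or CCGCCC on the other strand).
Areg: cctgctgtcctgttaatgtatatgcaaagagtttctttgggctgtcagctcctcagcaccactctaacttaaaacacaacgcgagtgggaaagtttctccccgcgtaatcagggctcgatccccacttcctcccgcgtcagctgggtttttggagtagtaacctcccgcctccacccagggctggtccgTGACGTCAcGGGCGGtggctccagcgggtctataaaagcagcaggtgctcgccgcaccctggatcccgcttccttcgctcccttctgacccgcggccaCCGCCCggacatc
Tgfa: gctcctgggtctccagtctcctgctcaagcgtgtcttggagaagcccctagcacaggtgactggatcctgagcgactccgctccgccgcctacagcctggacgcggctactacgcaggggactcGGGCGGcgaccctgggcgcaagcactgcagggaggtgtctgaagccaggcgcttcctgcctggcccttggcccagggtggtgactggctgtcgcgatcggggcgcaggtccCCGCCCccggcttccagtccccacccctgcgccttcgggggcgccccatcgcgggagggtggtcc
Epgn: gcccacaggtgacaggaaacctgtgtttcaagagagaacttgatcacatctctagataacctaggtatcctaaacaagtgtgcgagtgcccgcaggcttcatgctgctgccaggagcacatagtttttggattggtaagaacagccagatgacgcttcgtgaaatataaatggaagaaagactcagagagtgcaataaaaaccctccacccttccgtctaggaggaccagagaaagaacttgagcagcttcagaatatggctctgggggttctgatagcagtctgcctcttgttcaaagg
These windows are chr5:91139349-91139648, chr6:86194972-86195271 and chr5:91027267-91027566, all on the plus strand. The Areg window held a CRE that starts 61 bases before the gene start and, next to it without overlap, a GC box 52 bases before the start. A CRE was found in 1.79% of 32851 promoter windows of this length and in 1 of the 6 member windows. The GC box occurred in those of Areg, Egfr and Tgfa, against 35.7% of all windows. Neither the AP-1 motif TGANTCA nor the core of the interferon-stimulated response element was in any of the 6 windows on either strand, and 7.81% and 3.44% of all windows held them. These matches describe letters in a window and say nothing of binding in these cells.

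Co-cultured keratinocytes had less RNA of all 9 genes than keratinocytes alone in both replicate numbers, but the gap was wide in replicate 2 and narrow in replicate 1, and no gene passed the test. Among all 12515 genes tested, 38.9% were lower in both replicate numbers. The folds ran from 1.25 to 1.86 in replicate 1 and from 1.54 to 6.68 in replicate 2, and were larger in replicate 2 for 9 of 9 genes. For 6 genes both co-cultured libraries lay below both libraries alone, as for 24.3% of all genes, whereas the groups of Hbegf, Btc and Epgn overlapped.

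Egfr, the receptor of all 6 ligands, measured 17.5 and 13.3 RPKM in replicates 1 and 2 alone and 10.7 and 1.98 RPKM in co-culture. That was a 1.63-fold lower level in replicate 1 and a 6.68-fold lower one in replicate 2, the widest gap of any member. Erbb2 went from 15.9 and 13.8 RPKM to 11.4 and 4.27 RPKM. Its lowest co-cultured library still held 353 reads, so that counting error was small beside the difference between the replicates. For Erbb3 the values were 26.2 and 15.0 RPKM alone and 14.1 and 2.77 RPKM in co-culture. None of the 3 receptors had a co-cultured library that reached the lower library alone, although Erbb3 came near to it in replicate 1.

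In the fit of all 4 libraries that left the replicate number out, Areg had the most negative log2 fold change, given with its test further on. With the replicate number held as a block, Egfr (-1.64), Ereg (-1.60) and Erbb3 (-1.59) were more negative than Areg (-1.42). The level of Areg was 16.3 and 17.9 RPKM without T cells and 8.83 and 4.14 RPKM with them. The last values rested on 163 and 83 reads, and the groups did not overlap. Tgfa, with 39.0 and 28.3 RPKM alone, was at 23.2 and 9.28 RPKM in co-culture, again without overlap. Ereg measured 13.5 and 9.28 RPKM alone and 8.35 and 1.41 RPKM in co-culture, where its co-cultured replicate 1 lay just under the lower library alone. In the next 3 ligands the high co-cultured library exceeded the low library alone. Hbegf had 45.4 and 23.1 RPKM alone and 33.8 and 8.38 RPKM in co-culture. Btc gave 3.55 and 1.76 RPKM against 2.77 and 0.717 RPKM. Epgn, with 43.3 and 22.9 RPKM against 34.7 and 14.9 RPKM, differed least in both replicates.

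The test followed this spread. By edgeR's quasi-likelihood test with Benjamini-Hochberg adjustment, 0 of the 9 genes were called (0.0% of all 12515 genes were), and at an unadjusted p under 0.05 there was 1, Areg (unadjusted p = 0.0312), against 7.2% of all genes. DESeq2 called 0 of the 9 as well. Areg had a log2 fold change of -1.36 ± 0.45 (SE) with an adjusted p of 0.658 by edgeR. The receptors followed with -1.25 ± 0.77 for Erbb3, -1.24 ± 0.76 for Egfr and -0.88 ± 0.49 for Erbb2. Of the ligands, Ereg was at -1.19 ± 0.81, Tgfa at -1.003 ± 0.48, Hbegf at -0.66 ± 0.70, Btc at -0.56 ± 0.76 and Epgn at -0.36 ± 0.51. The median of the 9 log2 fold changes was -1.003, that of Tgfa, and that of all genes tested 0.02. The adjusted p-values of the 9 genes by edgeR lay between 0.658 and 0.803.

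A single library set the size of these differences. Without replicate 1 of the co-cultured keratinocytes, the log2 fold changes by edgeR were -2.88 for Ereg, -2.82 for Egfr and -2.76 for Erbb3. Areg was at -1.92, Hbegf at -1.89, Btc at -1.75, Tgfa at -1.73, Erbb2 at -1.67 and Epgn at -1.02. That fit rests on 1 co-cultured library and assumes that it varies like the libraries alone. Without replicate 2 of the co-cultured keratinocytes, the 9 log2 fold changes lay between -0.97 for Areg and 0.06 for Epgn.

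**Figure D2:**
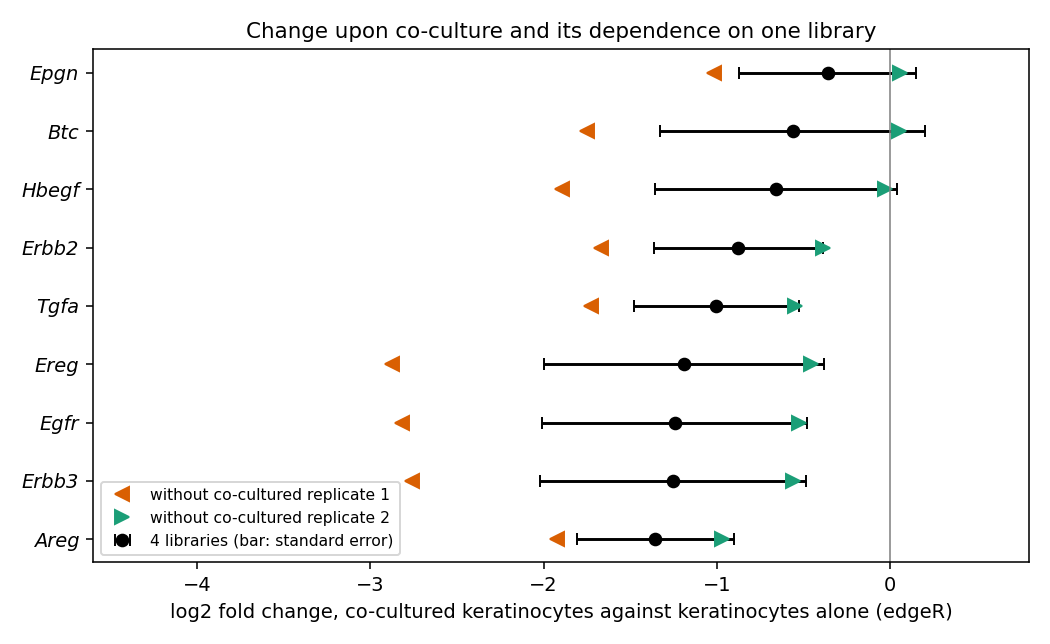
log2 fold change of each gene in co-cultured keratinocytes against keratinocytes alone by edgeR, with all 4 libraries (black circles, bars 1 standard error) and without replicate 1 (orange) or replicate 2 (green) of the co-cultured keratinocytes. The estimates without replicate 1 reach from -1.02 for Epgn to -2.88 for Ereg, and those without replicate 2 from -0.97 for Areg to 0.06 for Epgn.

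Transcript length moved with the co-culture in the same libraries. The median log2 ratio of co-cultured to single culture over all genes was 0.23 in replicate 1 and 0.30 in replicate 2 for genes with under 2 kb of exon, and -0.47 and -0.87 for those with 6 kb or more. Egfr, with 11.058 kb of exon, and Erbb3, with 6.016 kb, belong to the longest class, and Areg, with 1.215 kb, to the shortest. All 9 genes lay below the median of their own length class in both replicates. In each replicate a median has as many genes of its class below it as above it. The share of all genes that lie below it in both replicates was not computed, so that the 9 genes are not set apart by this. The distance was least for Egfr in replicate 1, at -0.24, and greatest for Areg, at -1.10 in replicate 1 and -2.30 in replicate 2. T-cell markers were also higher in replicate 2 of the co-culture, at 780 against 143 RPKM in replicate 1. The same held for keratinocytes alone, with 438 RPKM in replicate 2 against 112 RPKM in replicate 1. Most keratinocyte markers were lower in co-culture as well. Of the 16, 12 were lower in both replicates, 10 of these by a larger fold in replicate 2. Itgb4 had 88.1 and 83.6 RPKM alone and 78.0 and 12.8 RPKM in co-culture. Col17a1 had 122 and 171 RPKM alone and 89.6 and 16.5 RPKM in co-culture. Both differed far less in replicate 1, but other markers were far lower in both replicates. Ivl had 15.4 and 21.1 RPKM alone and 1.51 and 0.505 RPKM in co-culture. Sprr1a had 2910 and 2194 RPKM alone and 685 and 78.5 RPKM in co-culture. Dsp, Krt1 and Klk7 were also far lower in both replicates. Krt5 and Krt14, which make up most of the summed marker RNA, were higher in co-culture in both replicates. With the trend on exon length removed, in a fit that also held the replicate number as a block, the log2 fold change of Egfr was -0.63 (adjusted p = 0.314, edgeR) against -1.64 with the block alone, and Areg was called (-1.76, adjusted p = 0.027, edgeR) where the block alone had not called it (-1.42, adjusted p = 0.162, edgeR). The part of T-cell RNA and of the shift in keratinocyte markers in the differences between these groups was not tested.

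**Figure D3:**
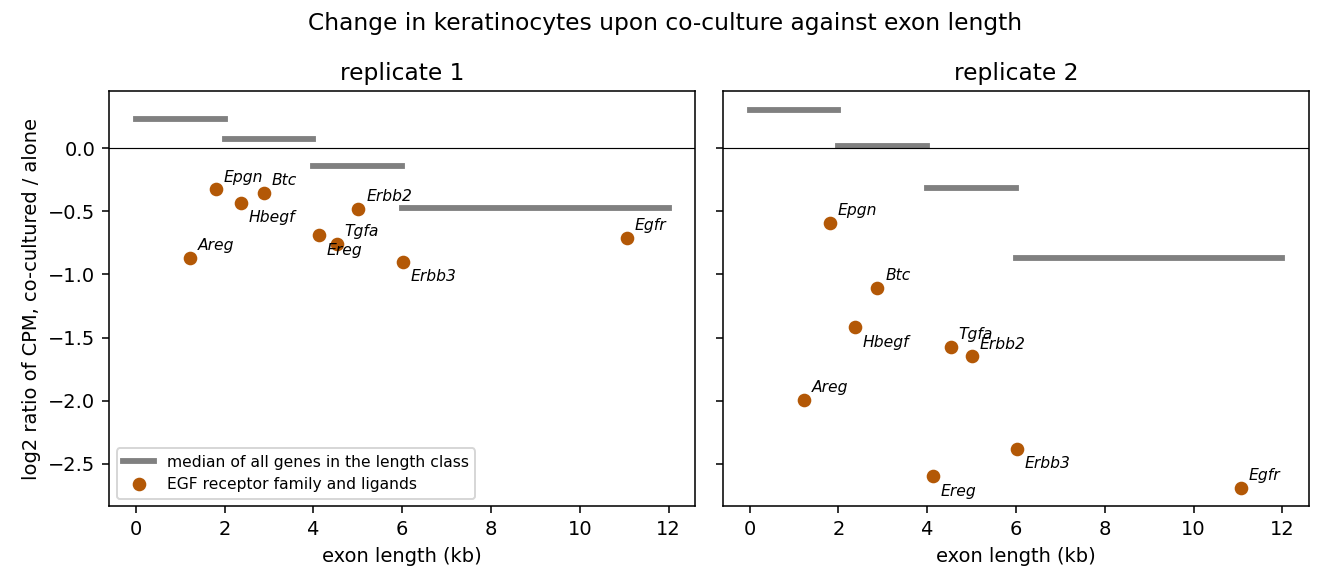
log2 ratio of counts, scaled to library size, in co-cultured keratinocytes to keratinocytes alone within replicate 1 (left) and replicate 2 (right) against exon length in kb; orange points are the 9 genes and grey bars the median of all genes in 4 length classes. All 9 points lie below the grey bar of their class in both panels, a pattern whose share among all genes was not computed. The shortest gene, Areg, lies 1.10 below its bar in replicate 1 and 2.30 below it in replicate 2.

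In T cells most of these genes were at or near 0 reads, and 3 of the 9 (Erbb3, Hbegf and Tgfa) had enough reads to be tested among T-cell groups. Hbegf was the ligand with the most reads in activated T cells. They held 61 and 60 reads of it, or 1.53 and 1.76 RPKM, and T cells in keratinocyte medium held 0 and 0 reads. In co-cultured T cells it was present again in both libraries, with 27 reads in library a and 38 in library b, or 0.747 and 1.13 RPKM.

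The lower level of Hbegf in T cells in keratinocyte medium passed the test against activated T cells (adjusted p = 0.026, edgeR's quasi-likelihood test with Benjamini-Hochberg adjustment), and the level was at least 21.2-fold lower when the 2 empty libraries are put at 3 reads each. Hbegf was the only 1 called of the 3 members in this fit. Of these, Tgfa had 0 reads in both groups and could not be tested between them. Of all 11863 genes, 4.22% were called lower. The call did not survive the loss of any 1 library of either group, with adjusted p-values of 0.057 to 0.108 by edgeR. Between co-culture and medium Hbegf was at least 12.1-fold higher in co-culture, without overlap, but was not called (adjusted p = 0.198, edgeR), and 0.261% of all genes were. DESeq2 and limma on log2(RPKM + 0.1) did call it. Between co-cultured and activated T cells, Hbegf had a log2 fold change of -0.59 ± 0.91 (adjusted p = 0.723, edgeR).

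Tgfa was at 0 reads in all 4 libraries of activated T cells and of T cells in keratinocyte medium and had 72 reads in library a and 12 in library b of the co-cultured T cells, or 1.04 and 0.187 RPKM. Co-culture was thus at least 14.4-fold above activated T cells and at least 15.1-fold above T cells in medium, without overlap. Library a carries most of this, since library b alone gives at least 4.39-fold and at least 4.61-fold. Tgfa passed the read filter among T cells only through the co-cultured libraries, where it is high, so that its p-values are given as a description and support nothing. Neither difference was called by edgeR (adjusted p = 0.070 and 0.785), and DESeq2 called the first. Of the 3 members tested, 0 were called between co-cultured and activated T cells, against 10.3% of all genes, and 0 between co-culture and medium. At an unadjusted p under 0.05 there was Tgfa in the first comparison (28.8% of all genes) and Hbegf and Tgfa in the second (3.45% of all genes), in both cases with this limit for Tgfa.

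Erbb3 was the receptor with reads in every T-cell library. It held 136 and 77 reads in activated T cells, 76 and 49 in keratinocyte medium and 89 and 19 in co-culture, or 0.223 to 1.34 RPKM over the 6 libraries. Both activated libraries lay above both in medium, the co-cultured libraries overlapped with either group, and none of the 3 comparisons called it, with log2 fold changes of -0.65 ± 0.74 for medium against activated, -0.75 ± 0.75 for co-culture against activated and -0.10 ± 0.75 for co-culture against medium. Erbb2 had 0 to 10 reads in a T-cell library and Egfr 0 reads in 4 of the 6, with 2 in replicate 1 of activated T cells and 10 in library a of the co-culture. Areg and Ereg were seen in library b of the co-culture only, with 6 and 16 reads. Epgn had 5 and 4 reads in co-culture and 3 in 1 activated library, and Btc had 0 reads in all 6.

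**Figure D4:**
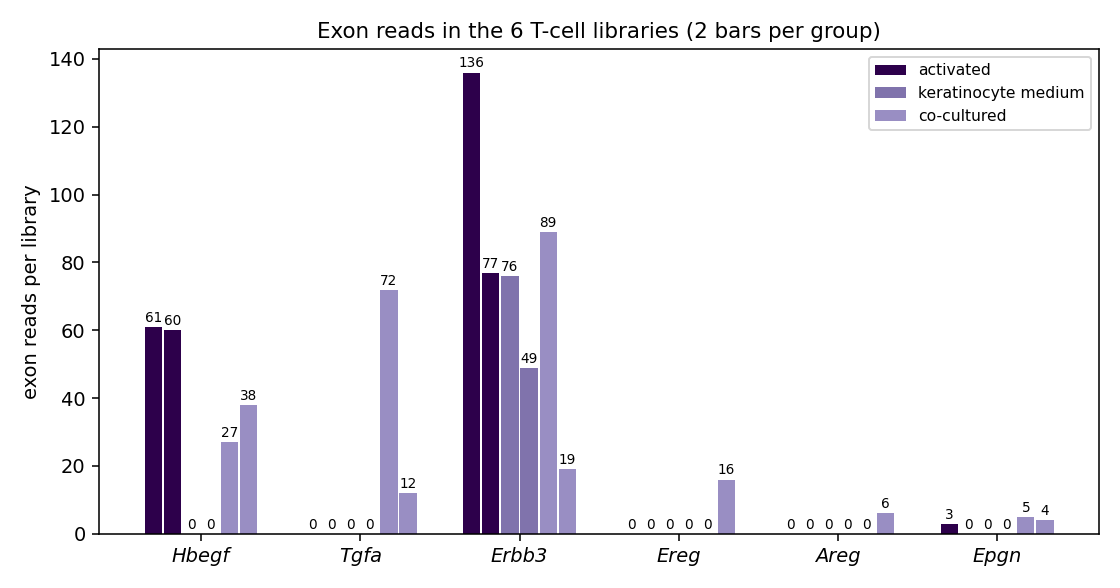
Exon reads (linear axis from 0) of the 6 genes named on the horizontal axis in each of the 6 T-cell libraries, with the count printed over each bar; bars of a group stand in the order replicate 1, 2 or library a, b. Hbegf goes from 61 and 60 reads to 0 and 0 in keratinocyte medium and is at 27 and 38 in co-culture, and Tgfa has reads in co-culture alone.

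How far co-cultured T cells stood below co-cultured keratinocytes was set beside keratinocyte markers, because each cell fraction can carry RNA of the other. The mean RPKM of the 9 genes in co-cultured T cells was 0% (Btc) to 7.09% (Erbb3) of that in co-cultured keratinocytes, with a median of 2.69% that moved between 0.733% and 4.21% when 1 library was left out. Single libraries of the T cells differed widely, with Areg at 0% in a and 5.38% in b, Ereg at 0% and 5.61% and Tgfa at 6.43% and 1.15%. Erbb3 stood at 0.645 ± 0.24 RPKM in T cells in medium, away from keratinocytes, where all 6 ligands had 0 reads. Hbegf stood at 4.45%, Tgfa at 3.79%, Ereg at 2.81%, Areg at 2.69%, Erbb2 at 1.06%, Epgn at 0.682% and Egfr at 0.467%. Over the 16 keratinocyte markers the median was 0.781%, within the range that a left-out library gives for the 9 genes, with Krt5 at 0.097%, Krt14 at 0.396%, Perp at 1.23% and, at the top, Sprr1a at 96.2%, Krt10 at 280.1% and Klk7 at 445%.

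Keratinocyte markers summed to 586 and 414 RPKM in libraries a and b of the co-cultured T cells, of which Sprr1a gave 429 and 306 RPKM, against 11.7 and 7.69 RPKM in T cells in keratinocyte medium and 20.8 and 23.2 RPKM in activated T cells. In the co-culture only Krt15 was at 0 in both libraries, in medium 8 of the 16 were. Melanocyte markers, 4 in number, summed to 5.67 RPKM in library a, where Tgfa was higher, and to 0.339 RPKM in library b. The part of carried-over keratinocyte or melanocyte RNA in the reads of these genes was not tested.

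**Figure D5:**
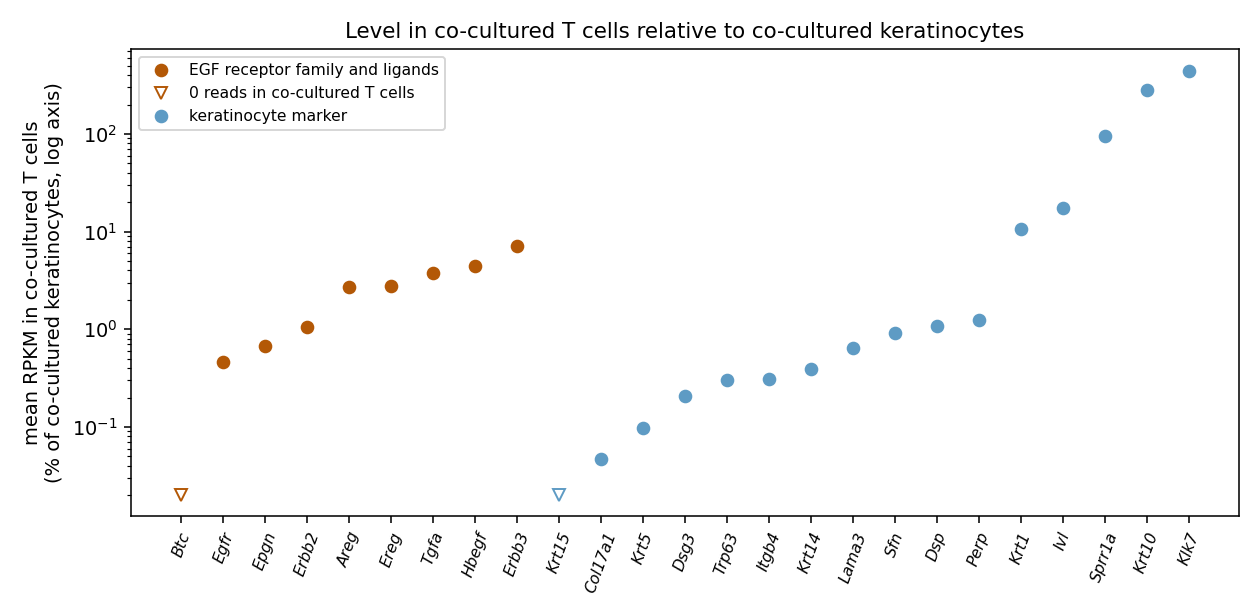
Mean RPKM in co-cultured T cells as percent of the mean in co-cultured keratinocytes (log axis) for the 9 genes (orange) and 16 keratinocyte markers (blue); open triangles at the lower edge are genes with 0 reads in co-cultured T cells. The 9 genes lie at 7.09% or lower, and 5 markers, from Krt1 at 10.7% to Klk7 at 445%, lie above all of them.

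Between the cell types 6 of the 9 genes, all but Erbb3, Hbegf and Tgfa, passed the read filter through the keratinocyte libraries alone, so that the number of members called higher there is not read as a result. Keratinocytes alone were called higher than activated T cells for 22.5% of all genes. Against activated T cells at 0 reads, the level was at least 788-fold higher for Tgfa, at least 243-fold for Ereg, at least 108-fold for Areg and at least 39.5-fold for Btc, which comes to at least 26.1-fold with the lower library of keratinocytes alone. Egfr had 2 reads and Epgn 3 reads in a single activated library, against 2497 or more reads of Egfr in either library of keratinocytes alone. Hbegf and Erbb3 showed the smallest contrasts, with log2 fold changes of 4.52 ± 0.73 and 4.36 ± 0.83. Their adjusted p-values were 0.0029 and 0.0046 by edgeR's quasi-likelihood test with Benjamini-Hochberg adjustment. Erbb2 was at 9.28 ± 1.11, which rests on 4 and 0 reads in activated T cells. With 1 library left out, Erbb2 ranged from 8.34 to 13.2, Hbegf from 3.90 to 4.81 and Erbb3 from 3.84 to 4.59.

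Against co-cultured T cells, co-cultured keratinocytes were called higher for 17.0% of all genes, and the same limit holds for the same 6 genes. The log2 fold changes were 3.76 ± 0.82 for Erbb3, 4.33 ± 0.73 for Hbegf, 4.69 ± 0.79 for Tgfa, 4.94 ± 1.43 for Ereg, 5.03 ± 1.21 for Areg, 6.39 ± 0.96 for Erbb2, 7.07 ± 0.82 for Epgn and 7.61 ± 1.22 for Egfr. Btc, at 0 reads in co-cultured T cells, was at least 24.5-fold higher in the keratinocytes, or at least 10.1-fold with replicate 2 alone. Of the 3 genes with more reads in T cells, edgeR gave adjusted p-values of 0.012 for Erbb3, 0.0054 for Hbegf and 0.0072 for Tgfa. The call of Erbb3 was lost without replicate 1 of the co-cultured keratinocytes or without library b of the co-cultured T cells.

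Whether co-culture acted differently in both cell types was asked with an interaction term over keratinocytes and T cells in keratinocyte medium. By edgeR, 0 of the 9 genes were called (0.576% of all genes were), and 6 had an unadjusted p under 0.05, namely Hbegf, Tgfa, Epgn, Areg, Ereg and Egfr (7.06% of all genes). The last 4 of these passed the read filter only through the keratinocyte libraries and had at most 16 reads in a T-cell library of this fit, so that their p-values rest on T-cell groups at or near 0 and are not read as a difference between the cell types. Tgfa and Hbegf had adjusted p-values of 0.119 and 0.121 by edgeR, and DESeq2 called both. Both genes were at 0 reads in T cells in medium, so that their T-cell side rests on the co-cultured libraries, where they are high. Their p-values and calls in this fit are therefore given as a description and support nothing. In keratinocytes both ligands were lower in co-culture in each replicate number, and in T cells both went from 0 reads to 27 or more for Hbegf and 12 or more for Tgfa. Without replicate 1 of the co-cultured keratinocytes, edgeR called Hbegf.

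Other genes of the pathway were taken from a list of 48. Egf was at 0 reads in all 4 keratinocyte libraries and Erbb4 likewise, so that the founding ligand and the fourth receptor were not detected there at this depth. Of the 44 list members tested, Nrg1, Nrg2, Gab1 and Lrig3 passed the read filter through the keratinocyte libraries alone and are left out of the counts between cell types. Nrg1 (neuregulin, a ligand of ERBB3) held 1157 and 1296 reads in keratinocytes alone against 1 and 0 in activated T cells, and Lrig3 347 and 365 against 0 and 6. Of the other 40, 14 were called higher in keratinocytes alone than in activated T cells and 2 lower by edgeR, where of the 11118 genes that passed the filter in each cell type 19.0% were higher and 14.7% lower. Higher were Adam17 (log2 fold change 1.48 ± 0.34), the gene of a protease that releases the ligands, and its partners Rhbdf1 (5.37 ± 0.96) and Rhbdf2 (2.36 ± 0.45). Adam10, another shedding gene, was not called (0.50 ± 0.29). Among early target genes Ier3 (4.72 ± 0.65), Fos (3.72 ± 0.55) and Ccnd1 (8.28 ± 1.25) were higher. Ccnd1 held 2 and 26 reads in activated T cells and ranged from 7.24 to 11.2 with 1 library left out. In the same way Ier3 ranged from 4.01 to 5.75, Fos from 3.13 to 4.41 and Rhbdf1 from 4.58 to 6.75. The feedback inhibitors went both ways. Errfi1 (4.31 ± 0.48), Spred1 (1.59 ± 0.35) and Dusp6 (1.76 ± 0.50) were higher, whereas Dusp4 (-2.32 ± 0.60) and Cblb (-2.00 ± 0.48), which made up both lower list members, were at a higher level in activated T cells. Co-cultured keratinocytes exceeded co-cultured T cells in 16 of the 40 and were lower in 2, the ubiquitin ligase genes Cblb (-2.54 ± 0.49) and Cbl (-1.58 ± 0.39), against 14.3% and 7.31% of those 11118 genes. Dusp4, Dusp6 and Cbl, and Cblb in the former comparison, were named after their values were seen.

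Between co-cultured keratinocytes and keratinocytes alone 0 of 44 list members were called by edgeR, and 30 had a negative log2 fold change, with a median of -0.36 against 0.02 for all genes. Negative values were found in 4 of 4 shedding genes, 12 of 13 feedback genes and 7 of 10 early targets tested, but in 5 of 14 transduction genes. Among all genes 48.7% were negative, and of the keratinocyte markers 13 of 16 were. In T cells in keratinocyte medium 3 of 40 list members were called lower than in activated T cells and 0 higher, close to the 4.22% and 2.32% of all genes that were called lower and higher. They were the MAP kinase feedback genes Spry1 (log2 fold change -2.52 ± 0.51) and Dusp5 (-1.55 ± 0.33) and the transcription factor gene Myc (-2.50 ± 0.51), and Hbegf was called lower in the same comparison. In co-culture against activated T cells 4 of 40 were lower and 2 higher, where 5.72% of all genes were lower and 4.59% higher, counts too small to set the list apart. The lower ones were Myc (-2.87 ± 0.52), Spry1 (-2.11 ± 0.50), Dusp5 (-1.45 ± 0.33) and Egr1 (-1.52 ± 0.38). Plaur, the urokinase receptor gene (2.61 ± 0.48), and Mapk3, the gene of ERK1 (1.35 ± 0.33), were higher. Between co-culture and medium 0 of 40 were called. Without 1 library of the groups compared, 0 to 1 of the list members were called between medium and activated T cells, where 1 was left without activated replicate 2 and 0 without any other, and 0 to 2 between co-culture and activated T cells, where 0 were left without activated replicate 1.

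The genes whose levels ran most like those of a member over the 10 libraries, among 8744 genes with at least 5 RPKM in a group, were found by Pearson's r of log2(RPKM + 1). For Egfr they were Camsap3, Micall2 and Gab1 (r = 0.9996 for each) and for Erbb2 Enah, Itgb4 and Ptk7. Areg ran with Mst1r, Galnt18 and Ablim3 (r = 0.997 for each), Ereg with Plekhg6, Efnb2 and Ppfibp2, Tgfa with Pkp1, Plcd3 and Jup, and Epgn with Tmc7, Itgb6 and Nipal4. Hbegf had the least close neighbours, Inpp5a, Gas2l1 and Tmem63b, with r = 0.992, 0.991 and 0.990. Btc was under 5 RPKM in every group and was left out. These values describe libraries that share 2 cell types, whose difference alone gives a high r.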

How the data were processed

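The authors extracted RNA, prepared poly(A) libraries and processed reads with the CLC Genomics Workbench at its default settings against GRCm38. Per the file headers, each deposited table lists total exon reads, unique exon reads and RPKM per gene. The counts (total exon reads), as deposited by the authors, are raw and not normalized. Other values used, the RPKM, are the authors' and carry decimal commas.

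Counts of all genes were tested with edgeR 4.0.16 (R 4.3.3; filterByExpr, TMM, quasi-likelihood test, Benjamini-Hochberg over all genes tested, adjusted p under 0.05). Keratinocyte and T-cell libraries were fitted apart, and together for contrasts between cell types. DESeq2 1.42.0 and limma 3.58.1 on log2(RPKM + 1) or log2(RPKM + 0.1), other scalings, filters and left-out libraries were alternatives. The code was tested on simulated counts. An exact permutation test of 2 against 2 libraries cannot go below p = 0.333 (two-sided). A count of 0 was put at 3 reads per library for folds. Members, pathway genes and markers were chosen with earlier results of these data known. Called pathway genes given by name were at most the 3 with the smallest adjusted p per sublist and comparison. Exceptions are Dusp4, Dusp6, Cbl and, between keratinocytes alone and activated T cells, Cblb, which were named after their values were seen. Replicates differed far beyond counting noise (chi-square per degree of freedom 89.1 to 199). Depth was 12864931 to 18019609 exon reads per library. The genes most like Erbb3 in level are not reported here.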

Additional observations from a re-analysis of the deposited data

How the results depend on the processing

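With 2 libraries per group, 1 library can decide a call. Leaving out a library puts a single library in its group, and the number of members called then is not given here. In keratinocytes, left-out libraries moved the log2 fold change of Btc from -1.75 to 0.049 and of Epgn from -1.02 to 0.12. Erbb3 ranged from -1.36 to 0.56 for co-culture against medium in T cells, and from -2.63 to 0.074 in the interaction. The median level of the 9 genes in co-cultured T cells, 2.69% of that in co-cultured keratinocytes, ranged from 0.733% to 4.21%. DESeq2, and edgeR with no filter, called 1 member (Tgfa) between co-cultured and activated T cells and 2 (Hbegf and Tgfa) for the interaction. The limits given above for Tgfa, and for both genes in the interaction, hold for these calls too. Between co-culture and medium DESeq2, and edgeR with no filter, called 1 (Hbegf), as did limma on log2(RPKM + 0.1). Demanding at least 10 reads in every library left 1 member called, Erbb3, in each contrast between cell types and 0 between medium and activated T cells, because it removes genes at or near 0 in T cells. The 9 genes kept their direction between keratinocytes alone and activated T cells when levels were taken without exon length. That outcome was fixed in advance, since the exon length of a gene is the same in every library.

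Same-numbered keratinocyte libraries deviated together (r = 0.558 over 12515 genes), but the labels do not say what a number marks. With the replicate number as a block, 0 members (adjusted p = 0.158 to 0.382, edgeR) and 2 genes were called in keratinocytes. With the replicate block and the trend on exon length removed, 1 member was called, Areg (log2 fold change -1.76, adjusted p = 0.027, edgeR), and 558 genes. The same step took Egfr to -0.63 and Erbb3 from -1.59 to -1.19 (adjusted p = 0.059, edgeR). The cause was not tested.

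Genes called in all shifted with the setting. In keratinocytes there were 0, and 0 to 1164 over the alternatives (186 by DESeq2). Medium against activated T cells gave 776 (24 to 1947), co-culture against activated 1222 (266 to 2425), co-culture against medium 31 (0 to 141), keratinocytes alone against activated T cells 4754 (2394 to 5788), both co-cultured groups 3177 (1614 to 4348) and the interaction 76 (0 to 353). Other pathway genes called, those that passed the filter through keratinocytes alone included, numbered 0 in keratinocytes (0 to 7 over the alternatives, with 7 without co-cultured replicate 1), 3 between medium and activated T cells (0 to 9), 6 between co-culture and activated (0 to 10), 20 between keratinocytes alone and activated T cells (12 to 23) and 21 between both co-cultured groups (13 to 27).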
